A study of Mus with 2 samples.

Results

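The 10 genes described here load and display peptides on major histocompatibility complex (MHC) molecules. They are Ciita, Cd74, H2-Aa, H2-Ab1, H2-Eb1, H2-DMa, H2-DMb1, H2-K1, H2-D1 and B2m. They were chosen by name for their place in antigen presentation, with earlier results of these data known, from 32285 genes in the files, and all 10 were detected in both libraries. Single-nucleus RNA sequencing was done on interscapular brown adipose tissue (iBAT) of C57BL/6 mice at 8 weeks of age. The control library is from mice labelled Wtap flox/flox, with a floxed allele of Wtap, a subunit of the RNA m6A methyltransferase complex, and no Cre. The other is labelled Wtap-BKO and is from mice with the same floxed allele plus Ucp1-iCre, in which Cre is expressed from the Ucp1 gene, a gene of brown adipocytes. Each library pooled nuclei of 4 mice, so there is 1 library per genotype and no replicate. No test between genotypes was possible, and every interval below is a 95% interval for counting error alone.

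Class I molecules sit on nearly all nucleated cells. A heavy chain such as H2-K1 or H2-D1 pairs with the light chain B2m and shows peptides cut from proteins of the cytosol to CD8+ T cells. Class II molecules are made mainly by macrophages, dendritic cells and B cells. An alpha and a beta chain pair in the endoplasmic reticulum around the invariant chain Cd74, take up peptides in endosomes with the help of H2-DM, and show them to CD4+ T cells. Ciita is the transactivator that the class II genes need, and interferon-gamma can switch class II genes on in other cell types. Resident macrophages are the main cells of adipose tissue known for class II.

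There were 9494 nuclei labelled Wtap flox/flox and 8772 labelled Wtap-BKO, with medians of 954 and 1306 unique molecular identifiers (UMIs) per nucleus and totals of 10770604 and 13945673 UMIs. The libraries shared 20 cell barcodes. Wtap was at 51.4 and 52.6 UMIs per 1000000 UMIs (CPM) over all nuclei and at 50.3 and 48.5 CPM in adipocyte nuclei. The kit counts 3′ ends and the floxed exon lies upstream of them, so Wtap levels do not check the genotype, and directions below are given between libraries as labelled. Nuclei were clustered without the 10 genes and without their pathway, and clusters were named from other markers. Ciita nonetheless stood among the 10 leading genes of the macrophage cluster. Where pairs of values follow, the Wtap flox/flox value stands before the Wtap-BKO one. Myeloid nuclei numbered 289 (3.04%) and 1116 (12.7%). Lymphoid nuclei were 131 and 805, endothelial nuclei 1136 and 779, fibroblast nuclei 277 and 489, and adipocyte nuclei 6738 and 4914.

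In build GRCm38.p6 of RefSeq, 7 of the genes lie on chromosome 17 in the mouse MHC. H2-K1 is at chr17:33996012-34000619, H2-DMa at chr17:34119693-34139101, H2-DMb1 at chr17:34153191-34160229, H2-Ab1 at chr17:34263227-34269418, H2-Aa at chr17:34282744-34287823, H2-Eb1 at chr17:34305867-34316674 and H2-D1 at chr17:35263094-35267497. Ciita is at chr16:10480014-10531064 and B2m at chr2:122147687-122153082. H2-K1, H2-D1 and the H2-Q and H2-T genes are close relatives of each other, as are H2-DMb1 and H2-DMb2, and reads that fit several of them could have been assigned to a wrong gene or dropped.

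Each class II gene had its highest level in myeloid nuclei, whereas class I genes were high in every class of nuclei. The sums of both sets, defined below, were higher in the library labelled Wtap-BKO in each of the 5 classes. Single genes could differ from this. In lymphoid nuclei Ciita was at 39.8 and 33.98 CPM (6 and 35 UMIs) and H2-DMb1 at 33.2 and 25.2 CPM (5 and 26 UMIs). The class II sum, the UMIs of Cd74, H2-Aa, H2-Ab1 and H2-Eb1 together, was 2436 CPM (2267 to 2615) and 4654 CPM (4556 to 4754) in myeloid nuclei, a log2 ratio of 0.93 (0.83 to 1.04) for Wtap-BKO over Wtap flox/flox. In lymphoid nuclei it was 159 and 406 CPM, in endothelial nuclei 76.7 and 348 CPM, in fibroblast nuclei 77.0 and 254 CPM, and in adipocyte nuclei 53.7 and 197 CPM. The log2 ratio was 1.35 (0.76 to 2.01) in lymphoid, 2.18 (1.86 to 2.52) in endothelial, 1.72 (1.11 to 2.39) in fibroblast and 1.88 (1.72 to 2.04) in adipocyte nuclei. The myeloid ratio lay below those of endothelial, fibroblast and adipocyte nuclei beyond counting error, and its interval overlapped the lymphoid one. With classes set nucleus by nucleus from markers and no clustering, the lymphoid class II ratio turned to -0.091, from 14 and 352 nuclei. Among levels labelled Wtap flox/flox, lymphoid nuclei stood 2.07-fold above fibroblast nuclei, a log2 difference of 1.05 (0.17 to 1.93), and fibroblast and endothelial nuclei did not differ beyond counting error, at 0.0063 (-0.70 to 0.66). Among those labelled Wtap-BKO, lymphoid nuclei stood 1.17-fold above endothelial nuclei, with a lower limit at the edge of 1-fold.

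The class I sum, the UMIs of H2-K1, H2-D1 and B2m together, had a different order. In the Wtap flox/flox library it was 2501 CPM (2255 to 2767) in lymphoid, 1975 CPM (1823 to 2136) in myeloid, 1731 CPM (1662 to 1802) in endothelial, 1496 CPM (1363 to 1638) in fibroblast and 640.4 CPM (622 to 659) in adipocyte nuclei. In the library labelled Wtap-BKO it was 5597, 5129, 3962, 2768 and 1936 CPM in the same order of classes. No neighbours in this order had overlapping counting intervals in either library. Adipocyte nuclei, the class with the lowest class I level, had the highest log2 ratio, 1.60 (1.55 to 1.64). The adipocyte nuclei of the libraries also differed in mitochondrial UMIs, 4.50% and 11.6%, and in median UMIs per nucleus, 989 and 1474.5. In nuclei with at most 5% mitochondrial UMIs, 5187 and 1061, the class I log2 ratio was 1.60 (1.53 to 1.67) and the class II one 1.86 (1.62 to 2.09). Over all nuclei of a class, the class I log2 ratio was 1.38 (1.26 to 1.496) in myeloid, 1.19 (1.12 to 1.27) in endothelial, 1.16 (1.01 to 1.32) in lymphoid and 0.89 (0.75 to 1.03) in fibroblast nuclei.

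**Figure D1:**
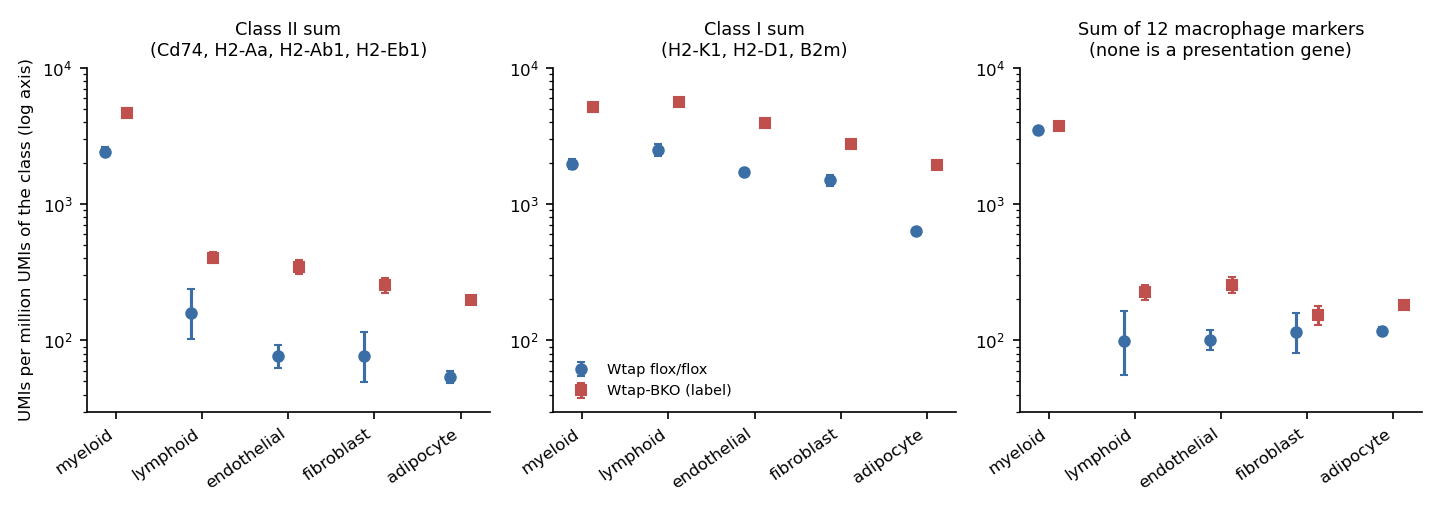
Level of the class II sum, the class I sum and 12 macrophage markers (y axis, UMIs per 1000000 UMIs of the class, log axis) in 5 classes of nuclei (x axis) in the Wtap flox/flox library (circles) and the library labelled Wtap-BKO (squares), with 95% counting intervals. Class II stands far higher in myeloid nuclei than elsewhere, 2436 and 4654 CPM, while class I lies within 640.4 to 5597 CPM in every class.

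The scale bears on the endothelial and lymphoid values most. Over every gene with 20 or more UMIs in both libraries together, the median log2 ratio was 0.07 in myeloid, 0.15 in lymphoid, 0.34 in endothelial, 0.09 in fibroblast and 0.07 in adipocyte nuclei. Setting these medians to 0 would lower every lymphoid log2 ratio. Median-of-ratios scaling, a different measure, would shift every endothelial log2 ratio by -0.36 and every lymphoid one by 0.30. Both sums stayed higher in the library labelled Wtap-BKO on that scale.

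Ciita stood high in myeloid nuclei and at a few CPM in adipocyte nuclei. It was at 382 CPM (121 UMIs) and 537 CPM (984 UMIs) in myeloid nuclei, a 1.40-fold difference with a log2 ratio of 0.49 (0.22 to 0.78). After each nucleus was thinned to 1000 UMIs, 31.1% (23.1 to 40.2) and 34.8% (31.4 to 38.4) of myeloid nuclei held a Ciita UMI, and these shares did not differ beyond counting error. Unthinned, the shares were 28.4% and 40.9%. Among the 10 genes, H2-DMa alone had a smaller myeloid ratio than Ciita. With classes set by markers and no clustering, the myeloid ratio of Ciita was -0.021.

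Outside the myeloid class Ciita was sparse. In adipocyte nuclei it was at 2.37 CPM (18 UMIs) and 6.98 CPM (58 UMIs), 0.62% and 1.30% of the myeloid level of the same library. Endothelial nuclei gave 1 and 10 UMIs, and the interval around the log2 ratio of 4.07 ran from 1.26 to 9.51. Fibroblast nuclei gave 0 and 16 UMIs, at least 1.64-fold higher when the 0 is set to the floor of 3 UMIs. Lymphoid nuclei gave 39.8 CPM (6 UMIs) and 33.98 CPM (35 UMIs), with a log2 ratio of -0.23 (-1.49 to 1.31) that includes 0. Of these lymphoid UMIs, 13 of those labelled Wtap-BKO lay in 55 B-like nuclei, where Ciita was at 243 CPM.

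The 3 class II chains were higher in the library labelled Wtap-BKO in myeloid nuclei by a larger factor than Ciita. H2-Aa, the alpha chain of I-A, was at 307 CPM and 836 CPM there, a log2 ratio of 1.45 (1.15 to 1.76). H2-Ab1, the I-A beta chain that pairs with it, was at 528 CPM and 1065 CPM, a log2 ratio of 1.01 (0.78 to 1.25). H2-Eb1, the I-E beta chain, which has no alpha chain partner in C57BL/6 mice, was at 401 CPM and 810.1 CPM, a log2 ratio of 1.01 (0.75 to 1.29). The intervals of H2-Aa and H2-Ab1 lay above that of Ciita, and the interval of H2-Eb1 overlapped it.

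In adipocyte nuclei the same 3 chains were low in both libraries but stood further apart. H2-Aa was at 8.82 and 39.0 CPM (67 and 324 UMIs), H2-Ab1 at 10.8 and 55.0 CPM (82 and 457 UMIs), and H2-Eb1 at 6.19 and 28.8 CPM (47 and 239 UMIs). Their log2 ratios were 2.14 (1.76 to 2.55), 2.35 (2.01 to 2.71) and 2.22 (1.76 to 2.70), each 4.42-fold or more. Endothelial nuclei had 11 and 45 UMIs of H2-Aa, 19 and 70 of H2-Ab1 and 19 and 58 of H2-Eb1, with log2 ratios of 2.78, 2.63 and 2.36 and lower limits of 1.81, 1.88 and 1.59. All 3 chains were thus higher in endothelial nuclei of the library labelled Wtap-BKO.

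The fibroblast and lymphoid values rest on few UMIs. Fibroblast nuclei labelled Wtap flox/flox gave 4 UMIs of H2-Aa, 2 of H2-Ab1 and 3 of H2-Eb1, against 44, 65 and 53 in those labelled Wtap-BKO. The log2 ratios were 1.76 (0.30 to 3.70), 3.32 (1.41 to 6.40) and 2.44 (0.82 to 4.76). Lymphoid nuclei gave 0 and 77 UMIs of H2-Aa, at least 3.76-fold higher in the library labelled Wtap-BKO. For H2-Ab1 the 8 and 95 UMIs there gave 0.80 (-0.24 to 2.05) as log2 ratio, and for H2-Eb1 the 2 and 56 UMIs gave 2.03 (0.11 to 5.12). Of the 3 chains, H2-Ab1 alone thus had an interval that includes 0 in lymphoid nuclei.

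Cd74, the invariant chain that fills the class II groove during assembly, was at 1201 CPM and 1942 CPM in myeloid nuclei, a log2 ratio of 0.69 (0.54 to 0.85). It was at 27.9 and 74.7 CPM in adipocyte, 41.2 and 138 CPM in endothelial, 48.1 and 93.7 CPM in fibroblast and 92.9 and 184 CPM in lymphoid nuclei. The log2 ratios were 1.42 (1.19 to 1.65), 1.74 (1.27 to 2.22), 0.96 (0.17 to 1.85) and 0.99 (0.21 to 1.89). In myeloid, endothelial, fibroblast and adipocyte nuclei Cd74 had the lowest ratio of the 4 genes in the class II sum, and in lymphoid nuclei H2-Ab1 had. The lymphoid ratio of Cd74 turned to -0.79 with classes set by markers and no clustering. The share of Cd74 in the class II sum was 49.3% (45.7 to 52.9) and 41.7% (40.7 to 42.8) in myeloid nuclei. In adipocyte nuclei it was 52.0% (47.0 to 56.9) and 37.8% (35.5 to 40.2). The mix of class II transcripts therefore differed between libraries in both classes, with less Cd74 per chain in the library labelled Wtap-BKO.

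The chains of H2-DM, which swaps the Cd74 remnant for peptide, are H2-DMa and H2-DMb1. The intervals of their log2 ratios overlapped in myeloid and in adipocyte nuclei. H2-DMb1 was at 139 CPM (44 UMIs) and 236 CPM (432 UMIs) in myeloid nuclei, for a log2 ratio of 0.76 (0.31 to 1.24). H2-DMa was at 44.2 CPM (14 UMIs) and 58.4 CPM (107 UMIs), and its interval around 0.40 (-0.41 to 1.32) includes 0. In adipocyte nuclei H2-DMb1 was at 3.42 and 8.18 CPM, with a log2 ratio of 1.26 (0.59 to 1.97), and H2-DMa at 7.51 and 10.1 CPM, with a log2 ratio of 0.43 (-0.07 to 0.94). Of the UMIs of H2-DMa, 66.3% and 34.6% lay in adipocyte nuclei and 16.3% and 44.0% in myeloid nuclei. H2-DMa was the only one of the 10 genes whose interval included 0 in both myeloid and adipocyte nuclei.

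Counts of H2-DM in the other classes were too low for more than ranges. H2-DMa had 7 and 14 UMIs in endothelial, 1 and 15 in fibroblast and 0 and 16 in lymphoid nuclei. H2-DMb1 had 3 and 8, 0 and 11, and 5 and 26 UMIs there. A difference of either gene in fibroblast or lymphoid nuclei was not detectable at this depth.

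**Figure D2:**
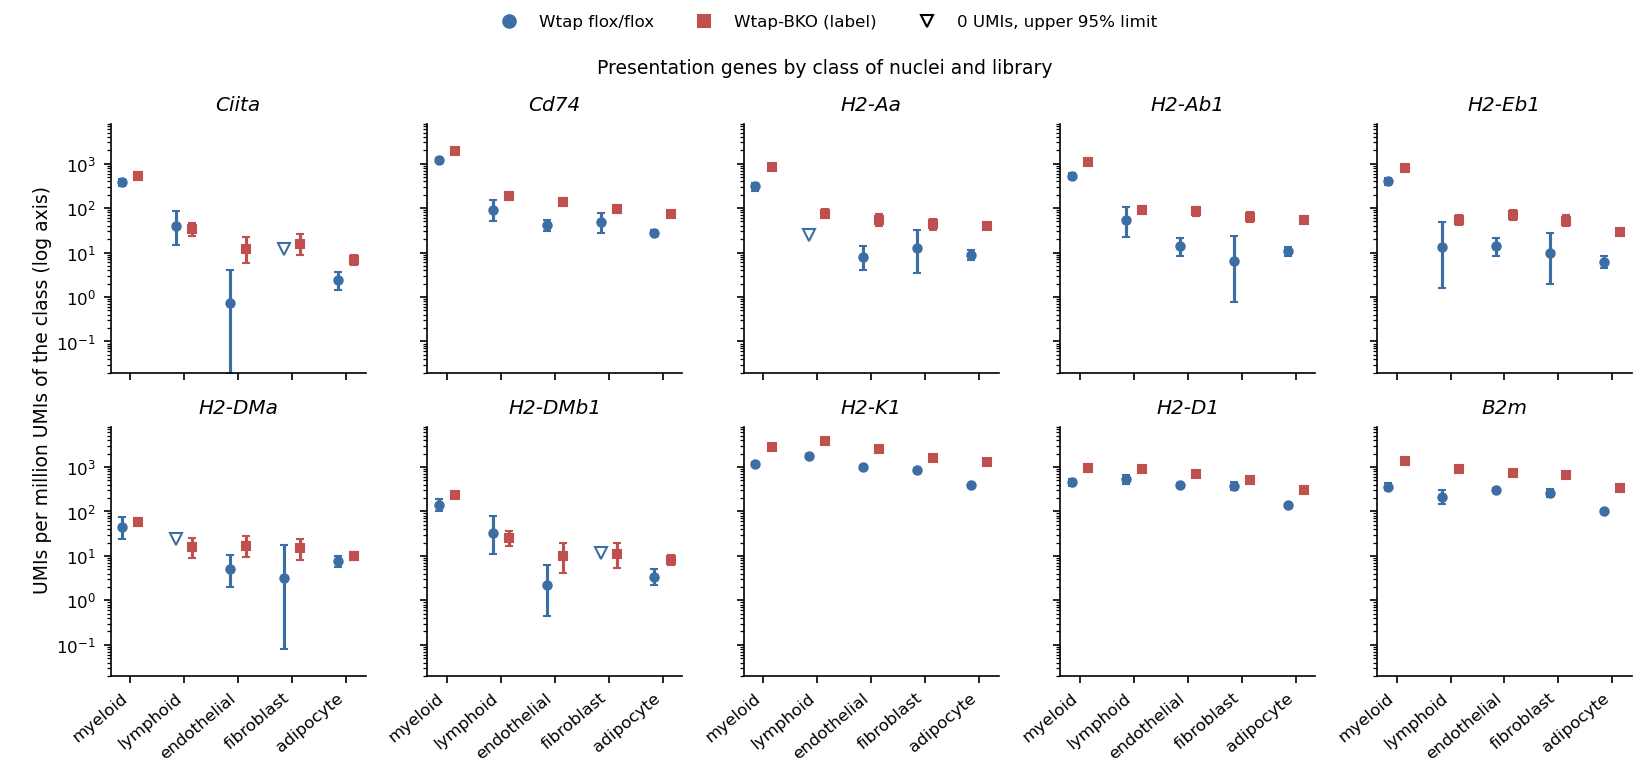
Level of each of the 10 genes (y axis, UMIs per 1000000 UMIs of the class, log axis) in 5 classes of nuclei (x axis), in the Wtap flox/flox library (circles) and the library labelled Wtap-BKO (squares), with 95% counting intervals and open triangles at the upper limit where no UMI was counted. Ciita and the class II genes fall from myeloid to adipocyte nuclei by differing factors. In the Wtap flox/flox library Ciita falls from 382 to 2.37 CPM and H2-DMa from 44.2 to 7.51 CPM. The class I genes fall less, as from 360 to 101 CPM for B2m in that library.

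H2-K1, the K heavy chain of class I, was the most counted of the 10 genes, with 5824 and 24756 UMIs over all nuclei. It was at 397 CPM and 1294 CPM in adipocyte nuclei, a 3.26-fold difference with a log2 ratio of 1.70 (1.65 to 1.76). In myeloid nuclei it was at 1166 and 2791 CPM, in lymphoid nuclei at 1765 and 3780 CPM, in endothelial nuclei at 1025 and 2512 CPM, and in fibroblast nuclei at 860.3 and 1600.3 CPM. The log2 ratios were 1.26 (1.11 to 1.42), 1.099 (0.92 to 1.28), 1.29 (1.19 to 1.39) and 0.90 (0.71 to 1.09). H2-K1 was therefore higher in the library labelled Wtap-BKO in every class, and its adipocyte interval lay above those of the other 4 classes.

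H2-D1, the D heavy chain, was higher by a smaller factor. It was at 142 and 302 CPM in adipocyte, 449 and 960.3 CPM in myeloid, 524 and 907 CPM in lymphoid, 402 and 704 CPM in endothelial and 376 and 500.2 CPM in fibroblast nuclei. Its log2 ratios were 1.09 (0.98 to 1.19), 1.098 (0.85 to 1.35), 0.79 (0.46 to 1.14), 0.81 (0.64 to 0.98) and 0.41 (0.12 to 0.72). H2-D1 had the lowest ratio of the 3 class I genes in each of the 5 classes. In adipocyte nuclei its share of the class I sum was 22.2% (21.0 to 23.4) and 15.6% (15.0 to 16.2).

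B2m, the light chain shared by all class I molecules, had the highest ratio of the 3 in each of the 5 classes. It was at 360 and 1377 CPM in myeloid nuclei, a 3.82-fold difference with a log2 ratio of 1.93 (1.66 to 2.22). In lymphoid nuclei it was at 212 and 909.8 CPM, a log2 ratio of 2.10 (1.59 to 2.66). In adipocyte nuclei it was at 101 and 339.7 CPM, a log2 ratio of 1.75 (1.63 to 1.86), and in endothelial and fibroblast nuclei the log2 ratios were 1.30 (1.12 to 1.48) and 1.36 (1.02 to 1.71). The interval of B2m lay above that of H2-K1 in myeloid and lymphoid nuclei, and above that of H2-D1 in each of the 5 classes. The share of B2m in the class I sum was 18.2% and 26.9% in myeloid, 8.49% and 16.3% in lymphoid and 17.4% (14.1 to 21.1) and 24.1% (22.5 to 25.7) in fibroblast nuclei. In endothelial nuclei it was 17.5% (16.0 to 19.1) and 18.8% (17.5 to 20.2), with overlapping intervals.

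Counted over genes that reached 20 UMIs when the libraries were added, 6 of 10 presentation genes were at least 2-fold higher in myeloid nuclei of the library labelled Wtap-BKO, where 12.5% of 10010 measured genes were. The count was 4 of 9 in lymphoid nuclei against 17.1% of all genes, 7 of 8 in endothelial nuclei against 14.1%, 4 of 7 in fibroblast nuclei against 11.3% and 9 of 10 in adipocyte nuclei against 14.7%. None was at least 2-fold lower in any class, where 6.2%, 8.01%, 2.58%, 4.49% and 4.25% of genes were. Over all nuclei 10 of 10 were at least 2-fold higher, against 19.8% of genes, and 0 at least 2-fold lower, against 2.81%. The genes not counted had fewer than 20 UMIs: 1 in lymphoid, 2 in endothelial and 3 in fibroblast nuclei. A gene low in the Wtap flox/flox library reached 20 UMIs mostly through the other library, so these counts describe the measured genes and not all 10. The median log2 ratio of the measured presentation genes was 1.01, 0.99, 1.74, 1.36 and 1.63 in the same order of classes. Between classes, 10 of 10 genes were at least 2-fold higher in myeloid than in adipocyte nuclei in each library, against 21.0% and 20.7% of genes.

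A finer clustering split the myeloid nuclei into 3 groups. Dendritic-like nuclei, 30 and 135, had a class II sum of 3024 CPM (2483 to 3648) and 5761 CPM (5482 to 6050), and their Ciita was at 610 and 973 CPM. The main macrophage-like group, 252 and 686 nuclei, had a class II sum of 2342 and 4384 CPM, a log2 ratio of 0.90 (0.78 to 1.03). Ciita in this group was at 360 and 385 CPM, a log2 ratio of 0.10 (-0.22 to 0.43), so Ciita did not differ beyond counting error where the class II sum did. A group of 7 and 293 nuclei led by Slfn4, Ly6i and Clec4e was nearly all from the library labelled Wtap-BKO, where its class II sum was 4639 CPM (4456 to 4828) and its class I sum 6557 CPM. With the label Wtap-BKO, dendritic-like nuclei therefore had the highest class II sum of the 3 groups and the Slfn4 group the highest class I sum. The class I sum of the dendritic-like nuclei was 2164 and 4030 CPM.

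Lymphoid nuclei were mostly T-like, 123 and 750, with 8 and 55 B-like. In B-like nuclei the class II sum was 2295 CPM (1907 to 2738) with the label Wtap-BKO, 49.3% of the myeloid level, and 2 UMIs were counted in the 8 nuclei labelled Wtap flox/flox. In T-like nuclei it was 152 and 302 CPM, 6.23% and 6.49% of the myeloid level. Macrophage markers in T-like nuclei summed to 89.7 and 227 CPM, 2.56% and 6.07% of their myeloid level, and their part in the class II difference was not tested. The T-cell markers of the same T-like nuclei summed to 2393 and 4719 CPM, 1.97-fold higher, beside 1.99-fold for class II and 2.25-fold for class I, and the adipocyte markers there were at 10339 and 7781 CPM. Class I was 2511 and 5655 CPM in T-like nuclei, the higher of these lymphoid values. Among adipocyte nuclei, the group led by Gbp genes, Iigp1 and other interferon-responsive genes (130 and 323 nuclei) had H2-K1 at 655 and 2878 CPM and a class I sum of 986 and 4237 CPM, a log2 ratio of 2.10 (1.87 to 2.35). The class I ratio of all adipocyte nuclei without this group was 1.47. The adipocyte group led by Slc7a10, Cyp2e1 and Trhde (188 and 497 nuclei) had a class I sum of 1172 and 2277 CPM, a log2 ratio of 0.96 (0.79 to 1.14).

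Markers of macrophages were higher in the library labelled Wtap-BKO, as class II was, in lymphoid, endothelial and adipocyte nuclei. In adipocyte nuclei the 12 macrophage markers summed to 118 and 181 CPM, and 10 of the 12 were higher in the library labelled Wtap-BKO, where Lyve1 was at 0. The sum was 101 and 254 CPM in endothelial nuclei, with 9 of 12 higher and Fcgr1 at 0 in both libraries. In lymphoid nuclei it was 99.5 and 225 CPM, a log2 ratio of 1.18 (0.43 to 2.04), with 9 of 12 higher, Lyve1 at 0 in both libraries and Mrc1, Cd163, F13a1 and Cd68 at 0 in the nuclei labelled Wtap flox/flox. In fibroblast nuclei it was 116 and 154 CPM, a log2 ratio of 0.41 (-0.12 to 0.98) that includes 0, with 8 of 12 higher, Fcgr1 at 0 in both libraries and Cd163 and Lyve1 at 0 in the nuclei labelled Wtap flox/flox. In adipocyte nuclei the T-cell markers summed to 18.4 and 66.8 CPM, with 12 of 12 higher, and the B-cell markers to 6.19 and 11.7 CPM, with 8 of 8 higher. Of the dendritic markers there 8 of 9 were higher, but their sum was 55.8 and 58.5 CPM, a log2 ratio of 0.07 (-0.12 to 0.26), because Zbtb46 held 377 of 424 and 339 of 486 of their UMIs, with a log2 ratio of -0.28 (-0.50 to -0.07). Of the markers of other cells, some were higher as well and some were lower. Endothelial markers were at 153 and 95.7 CPM in adipocyte and 302 and 226 CPM in fibroblast nuclei. Fibroblast markers were at 233 and 591 CPM in adipocyte, 337 and 914 CPM in endothelial and 206 and 597 CPM in lymphoid nuclei. In endothelial nuclei T-cell markers were at 59.3 and 184 CPM, with 12 of 12 higher, and endothelial markers at 3432 and 5786 CPM. The part of these markers in the class II and class I values was not tested.

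Set against the myeloid level of the same library, class II in adipocyte nuclei was at 2.21% and 4.24%, and macrophage markers were at 3.36% and 4.83%. Endothelial nuclei had 3.15% and 7.48% for class II and 2.87% and 6.79% for the markers, and fibroblast nuclei 3.16% and 5.45% against 3.301% and 4.11%. As a share of the myeloid level, class II therefore stood no higher than macrophage markers in adipocyte nuclei and close to them in endothelial and fibroblast nuclei. The class I level was 32.4% and 37.7% of the myeloid one in adipocyte, 87.6% and 77.2% in endothelial and 75.7% and 54.0% in fibroblast nuclei, many times the share of the macrophage markers. In nuclei with no UMI of any of 52 immune markers the class II sum was 52.7 and 189 CPM in adipocyte, 78.2 and 368 CPM in endothelial and 43.5 and 215 CPM in fibroblast nuclei. Their class I sum was 644 and 1900.0 CPM, 1782 and 4120.5 CPM, and 1517 and 2763 CPM. At these depths a nucleus can lack a marker UMI by counting alone, so this choice of nuclei does not remove outside RNA. The part of macrophage RNA from outside the nuclei in these class II values was not tested.

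Shares of nuclei showed the same contrast at 1 depth, 1000 UMIs per nucleus. At least 1 class II UMI was seen in 65.6% (56.4 to 73.9) and 88.7% (86.2 to 90.9) of myeloid nuclei, and in 4.81% (4.10 to 5.59) and 16.8% (15.6 to 18.0) of adipocyte nuclei. UMIs of at least 2 different class II genes were seen in 44.3% and 71.1% of myeloid nuclei but in 0.152% and 1.75% of adipocyte nuclei, 5 of 3288 and 67 of 3824. At least 3 class II UMIs were counted in 1 of 3288 and 11 of 3824 adipocyte nuclei. Nuclei with several class II transcripts were thus common among myeloid and rare among adipocyte nuclei at this depth. A class I UMI was seen in 43.1% (41.4 to 44.8) and 78.2% (76.8 to 79.5) of adipocyte nuclei, and in 80.3% and 96.9% of myeloid and 85.2% and 98.4% of lymphoid nuclei. Unthinned, class II was seen in 5.61% and 25.9% of adipocyte and 78.9% and 92.0% of myeloid nuclei, and class I in 47.2% and 88.2% of adipocyte nuclei. The thinning left out 167 and 364 myeloid and 3450 and 1090 adipocyte nuclei with fewer UMIs.

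**Figure D3:**
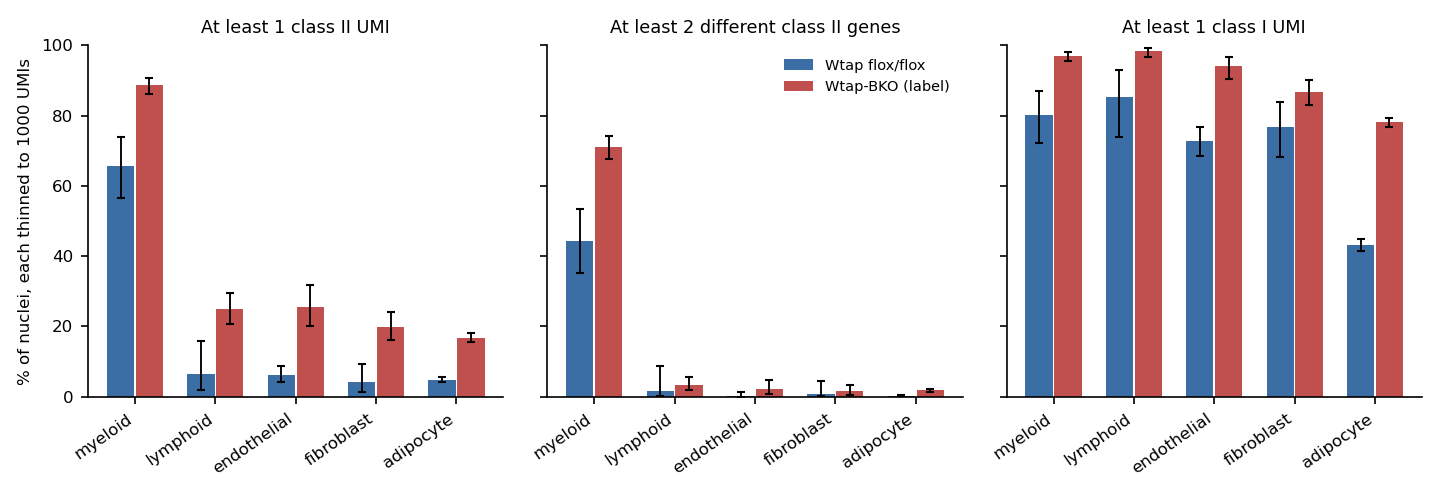
Share of nuclei (y axis, percent) with at least 1 class II UMI, with at least 2 different class II genes, and with at least 1 class I UMI, in 5 classes (x axis), with each nucleus thinned to 1000 UMIs, for nuclei labelled Wtap flox/flox and Wtap-BKO, with 95% Clopper-Pearson intervals. In adipocyte nuclei at least 1 class II UMI was seen in 4.81% and 16.8%, and 2 different class II genes in 0.152% and 1.75%.

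Over all nuclei the class II sum was 132 and 835 CPM, and the class I sum 900.2 and 2848 CPM. Fewer nuclei of a class and less RNA per nucleus cannot be told apart in these totals. Both the makeup of the library and the levels inside the classes entered them. With the class levels of the Wtap flox/flox library and the shares of UMIs per class of the other, class II came to 380.03 CPM, 2.87-fold its own value. With the class levels of the library labelled Wtap-BKO and the Wtap flox/flox shares it came to 389 CPM, 2.94-fold. Either exchange alone gave less of the class II difference than both together, and the values of the exchanges lay close to each other. For class I the same exchange gave 1099.8 CPM (1.22-fold) from makeup and 2427 CPM (2.70-fold) from levels. Myeloid nuclei held 54.1% and 73.2% of all class II UMIs. Adipocyte nuclei held 50.2% and 40.5% of class I UMIs, and endothelial nuclei 24.7% and 8.19%.

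**Figure D4:**
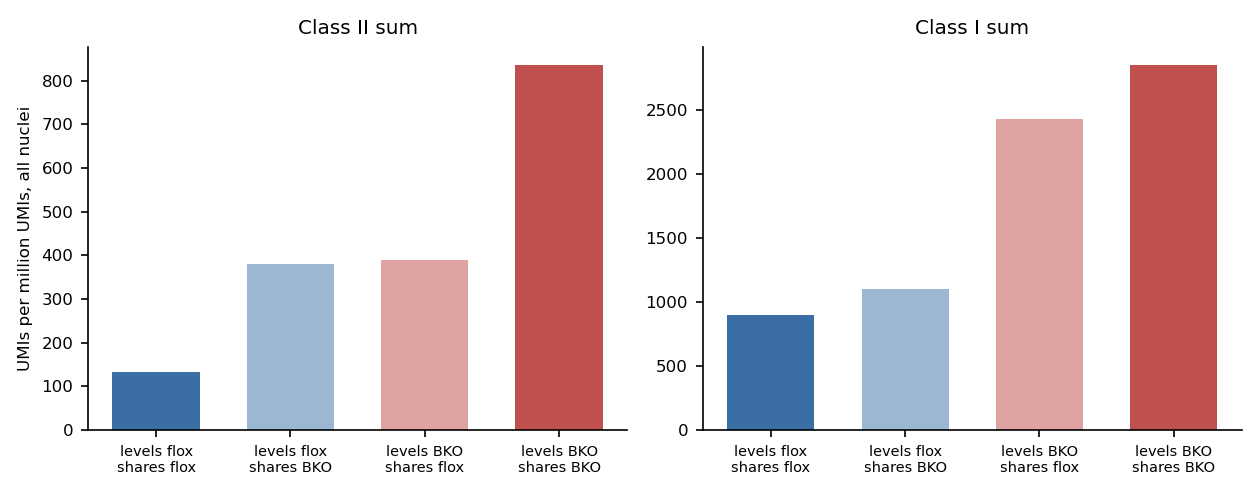
Class II and class I sums over all nuclei (y axis, UMIs per 1000000 UMIs) with the levels per class and the shares of UMIs per class taken from the Wtap flox/flox library or from the library labelled Wtap-BKO (x axis). Exchanging only the shares takes class II from 132 to 380.03 CPM and class I from 900.2 to 1099.8 CPM, and exchanging only the levels takes them to 389 and 2427 CPM.

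The other genes of class I loading were on the whole higher in the library labelled Wtap-BKO. Of 21 genes of peptide cutting, transport and loading, all 21 had a log2 ratio above 0 in adipocyte nuclei and 11 were at least 2-fold higher, against 14.7% of all genes, with a median of 1.07. The median was 0.71 in myeloid nuclei (5 of 21 at least 2-fold higher, against 12.5% of all genes), 1.03 in lymphoid nuclei (11 of 21, 17.1%), 0.60 in endothelial nuclei (6 of 20, 14.1%) and 0.42 in fibroblast nuclei (4 of 19, 11.3%). The median of all genes was 0.07 to 0.34 in these classes. Tapbp, the tapasin that holds class I at the peptide transporter, was among the highest 2 in each of the 5 classes. It was at 60.7 and 229.6 CPM in adipocyte nuclei, a log2 ratio of 1.92 (1.77 to 2.07), and at 142 and 463 CPM in myeloid nuclei, a log2 ratio of 1.70 (1.27 to 2.17). H2-T23, a nonclassical class I heavy chain, was at 3.56 and 15.3 CPM in adipocyte nuclei, a log2 ratio of 2.10 (1.496 to 2.76). At the low end, Psme1, a subunit of the proteasome activator PA28, was at 36.9 and 37.9 CPM in adipocyte nuclei and Erap1, which trims peptides, at 52.3 and 57.3 CPM, with log2 ratios of 0.04 (-0.20 to 0.28) and 0.13 (-0.06 to 0.33).

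Of 15 further class II genes in the files, 12 were measured in myeloid nuclei, with a median log2 ratio of 0.84 and 5 at least 2-fold higher, against 12.5% of all genes. Ifi30, a thiol reductase of endosomes, was at 31.6 and 176 CPM there, a log2 ratio of 2.48 (1.58 to 3.55), and Cd40, a costimulatory receptor, at 22.1 and 94.99 CPM, a log2 ratio of 2.10 (1.03 to 3.44). March1, a ubiquitin ligase that sends class II to degradation, was at 313 and 342 CPM, a log2 ratio of 0.13 (-0.18 to 0.45). In adipocyte nuclei 4 of 10 measured genes were at least 2-fold higher, against 14.7%, with a median of 0.76. In lymphoid nuclei 3 of 8 were at least 2-fold higher, against 17.1%, and 1 at least 2-fold lower, against 8.01%, with a median of 0.39. Endothelial and fibroblast nuclei had medians of 1.13 (4 of 7, against 14.1%) and 0.81 (2 of 4, against 11.3%). In adipocyte nuclei Ctss, the protease that degrades Cd74, was at 2.50 and 15.6 CPM, a log2 ratio of 2.64 (1.94 to 3.42). Rfxank, a subunit of the RFX complex at class II promoters, was at 32.0 and 24.7 CPM in adipocyte nuclei, a log2 ratio of -0.38 (-0.65 to -0.10).

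Genes of the interferon-gamma axis had medians of 1.21 in myeloid (6 of 9 at least 2-fold higher, against 12.5%), 1.09 in lymphoid (5 of 9, 17.1%), 1.01 in endothelial (4 of 8, 14.1%), 1.06 in fibroblast (5 of 9, 11.3%) and 0.99 in adipocyte nuclei (4 of 9, 14.7%). Cxcl10, a chemokine that interferon induces, was at 1.84 CPM (14 UMIs) and 29.7 CPM (247 UMIs) in adipocyte nuclei, a log2 ratio of 4.01 (3.24 to 4.90), and Socs1, a feedback inhibitor, at 0.922 and 12.2 CPM, a log2 ratio of 3.72 (2.63 to 5.07). The receptor chains differed from each other in adipocyte nuclei. Ifngr1, which binds the ligand, was at 219 and 135 CPM, a log2 ratio of -0.70 (-0.81 to -0.59). Ifngr2, its partner chain, named here after its values were seen, was at 6.58 and 13.1 CPM, a log2 ratio of 0.99 (0.50 to 1.51). Ifngr1 had a log2 ratio of -0.60 (-0.999 to -0.20) in fibroblast, -0.16 (-0.53 to 0.22) in myeloid, 0.21 (-0.11 to 0.52) in endothelial and 1.16 (0.52 to 1.87) in lymphoid nuclei. The kinase Jak1 was at 105 and 98.2 CPM in adipocyte nuclei, a log2 ratio of -0.09 (-0.23 to 0.05). In myeloid nuclei Cxcl9, another interferon-induced chemokine, had 8 and 326 UMIs, a log2 ratio of 2.82 (1.82 to 4.04).

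Over the 10 profiles made of 5 classes in 2 libraries, the genes most like the class II sum among 11845 compared were Tet3 (Pearson r = 0.989), Pld4 (0.984), Fcgr2b (0.984), Cacna1d (0.979) and Fam174a (0.979). Those most like the class I sum were Manf (0.966), Myl12b (0.956), Psmb8 (0.954), Arf5 (0.952) and Pfn1 (0.951). Psmb8, an immunoproteasome subunit, is the only one of these 10 genes that belongs to a presentation list above. The measure is the correlation of log2(CPM + 1), and the profiles share 2 libraries, so it is a description with no test.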

How the data were processed

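The authors aligned the reads of both libraries to mm10 with Cell Ranger (5.0.0 per the file header) and deposited raw UMI counts per gene and nucleus, with at least 500 UMIs in each nucleus. Whether intronic reads were counted is not given in the sources used here. From these deposited counts, nuclei were clustered with Seurat 5.3.0 (log-normalised values, 2000 variable features, CCA integration, 20 principal components, resolution 0.5, and 1.0 for the finer groups). The 10 genes and the pathway lists, 59 symbols in all, were left out of the variable features. A cluster was named when at least 3 markers of a class reached 10 UMIs and 2 times the level of all other nuclei. The remaining clusters were called adipocyte when at least 50% of the 12 adipocyte markers were 1.5 times above the named clusters. This gave 13 clusters, of which 1, led by mitochondrial genes, stayed unnamed. Scrublet called 3 and 0 doublets, too few to have worked, so doublets were kept and the 721 and 616 highest scores were removed as an alternative.

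Counts were summed per class and library and divided by all UMIs of the class. Levels have exact Poisson intervals, ratios exact conditional intervals and shares Clopper-Pearson intervals (Python 3.11.15, scipy 1.17.1), at a confidence level of 95%. A count of 0 was set to a floor of 3 UMIs per library for ratios. With 1 library per genotype there is no test and no p-value, and "at least 2-fold" is a rule of size. The ratio script was tested on simulated counts. The gene lists, the naming thresholds and the 10 genes were chosen with earlier results of these data known. All 10 genes are named, and of each pathway list the 2 highest and the 2 lowest ratios per class were eligible to be named. Interval coverage assumes independent UMIs. Alternatives tried were 1000 UMIs as the minimum, removal of nuclei over 5% mitochondrial UMIs, a denominator without mitochondrial UMIs, median-of-ratios scaling, resolution 1.0, 8 principal components, doublet removal, a marker gate per nucleus without clustering, removal of nuclei with an immune marker, and other UMI minimums for the lists. H2-Ea was not analysed here. Gene positions come from RefSeq, where 10 of 10 genes matched. No sequence is shown.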

Additional observations from a re-analysis of the deposited data

Results flagged for a closer look

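The class II genes were also counted in nuclei outside the 5 classes, which no comparison between classes above uses and which enter only the values over all nuclei. In pericyte-like nuclei (483 and 283) the class II sum was 88.2 CPM with the label Wtap flox/flox and 729 CPM (655 to 810) with the label Wtap-BKO, and the log2 ratio was 3.05 (2.63 to 3.49). That level was 15.7% of the myeloid one, above the 4.24% of adipocyte nuclei. Macrophage markers stood at 119 and 436 CPM in the same nuclei, 3.404% and 11.6% of their myeloid level, and their part in the result was not tested. Without nuclei holding an immune marker UMI the class II sum was 42.4 and 299.9 CPM, from 15 and 40 UMIs, and a nucleus can lack a marker UMI by counting alone. At least 3 class II UMIs were counted in 3 of 483 and 23 of 283 pericyte-like nuclei before thinning. The class I sum there was 1027 and 2682 CPM.

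In the cluster led by mitochondrial genes, which has no cell type name (440 and 386 nuclei), the class II sum was 94.2 and 367 CPM and the class I sum 853 and 2462 CPM, the Wtap-BKO value last. Macrophage markers summed to 102 and 223 CPM there, and mitochondrial genes took 36.7% and 43.9% of its UMIs.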

How the results depend on the processing

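Values here are log2 ratios of Wtap-BKO over Wtap flox/flox. Of 100 alternative values of the 12 sums, 75 moved by less than the counting interval, 24 moved further and 1 turned. The class II sum in lymphoid nuclei was -0.091 with classes set by a marker gate, which kept 14 and 352 nuclei. The gate also gave 0.62 in myeloid, 3.35 in fibroblast and 2.50 in adipocyte nuclei for class II, and 1.13 in myeloid and 0.82 in lymphoid nuclei for class I. With at least 1000 UMIs per nucleus, class II was 1.43 in myeloid and 2.92 over all nuclei, and class I 1.502 in myeloid, 1.12 in endothelial and 1.09 in fibroblast nuclei. Without nuclei over 5% mitochondrial UMIs, class II was 2.53 in endothelial, 2.43 in fibroblast and 2.81 over all nuclei, and class I was 1.85 over all nuclei. With mitochondrial UMIs left out of the denominator, class I was 1.12 in endothelial, 1.71 in adipocyte and 1.73 over all nuclei. With median-of-ratios scaling, class II was 1.83 in endothelial and 2.51 over all nuclei, and class I 1.46 in lymphoid, 0.84 in endothelial and 1.52 over all nuclei. At resolution 1.0 class II was 2.69 in endothelial nuclei. Without the interferon-responsive adipocyte group, an alternative chosen after seeing the data like those without the smaller endothelial cluster and those for pericyte-like nuclei, class I was 1.47 in adipocyte nuclei. Among single genes, the marker gate turned Ciita in myeloid nuclei to -0.021 and Cd74 in lymphoid nuclei to -0.79. With at least 1 UMI per gene, the median of the other class II genes was -0.27 in lymphoid and 0.035 in fibroblast nuclei. It was 0.57 in myeloid, 0.75 in endothelial and 0.76 in adipocyte nuclei. With at least 100 UMIs, which left 7 genes in each, it was 1.23 in myeloid and 0.38 in adipocyte nuclei. The cause of these moves was not tested.

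A limit is the design of 1 pooled library per genotype, so the spread between mice is unknown and genotype and library cannot be told apart. Counts of H2-DM and Ciita outside myeloid nuclei and of all class II genes in Wtap flox/flox lymphoid and fibroblast nuclei (24 UMIs each) allow only wide intervals. No paired analysis was possible because each genotype has 1 library and the labels give no replicate numbers.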
